A study of Mus musculus with 6 samples.

Results

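The genes described here form the transcriptional response to the stress factor ATF4, together with the cytosolic enzymes that load amino acids onto tRNA. The cells were 4T1, an aggressive carcinoma line derived from mouse mammary gland. The list names 39 genes, chosen for their known roles, with earlier results of these data already known. Each gene is read by the single-symbol probe set with the highest mean signal over all 6 arrays. Of the 39 genes, 36 were found on the array under their own symbol and Mars was found as Mars1. Thus 37 of 39 listed genes were measured among 18193 genes in all. Pycr1, which completes proline synthesis, and Dars, the aspartyl-tRNA synthetase, had no named probe set here.

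The study compared 4T1 cells transduced with a control shRNA with 4T1 cells transduced with an shRNA against NFAT1, a calcium-regulated transcription factor encoded by Nfatc2. Adherent cultures of both groups went through 10 days of selection before RNA was extracted, and each Affymetrix mouse array received cRNA made from 200 ng of total RNA. Each group held 3 arrays, numbered 1 to 3. Which shRNA sequence was used, and whether replicates are separate cultures, is not given in the labels, so the p-values cover the spread between these samples only, which may be technical. No treatment that induces stress or removes amino acids is named for either group.

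When amino acids run short, when unfolded protein accumulates in the endoplasmic reticulum or when haem is lacking, dedicated kinases phosphorylate the translation factor eIF2alpha. General translation then drops, while the Atf4 message is translated better, so ATF4 protein can increase without more Atf4 mRNA. ATF4 pairs with C/EBP proteins and CHOP on composite DNA elements and switches on genes for amino acid uptake and synthesis, tRNA charging and, under lasting stress, cell death. Arrays read mRNA only, so neither ATF4 protein nor eIF2alpha phosphorylation was measured here.

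The composite element was searched for in the promoters of the members, to show which of them carry it close to the start. The letters searched were TGATGNAA on either strand, which read TTNCATCA on the other strand, in the 250 bases before each RefSeq start of the build GRCm38.p6. Promoter sequences were at hand for 30 of the 37 measured members. Of these 30, 7 held the letters (23.3%), against 3.9% of the 27025 genes in the promoter table. The members were chosen as known ATF4 response genes, so this share describes the choice. The 7 were Nupr1, Chac1, Vldlr, Asns, Gars, Tars and Aars. Stretches of 6 of them are shown with the matching letters in capitals, read along the strand of the gene.
Gars, chr6:55037926-55038000, plus strand, match beginning 30 bases before the start: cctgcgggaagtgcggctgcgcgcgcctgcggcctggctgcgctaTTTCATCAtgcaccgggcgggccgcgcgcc
Nupr1, chr7:126625528-126625625, minus strand, match beginning 110 bases before the start: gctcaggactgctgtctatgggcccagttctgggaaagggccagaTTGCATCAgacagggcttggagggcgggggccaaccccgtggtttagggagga
Tars, chr15:11399659-11399718, minus strand, match beginning 15 bases before the start: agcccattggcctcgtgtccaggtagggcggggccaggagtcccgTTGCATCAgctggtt
Chac1, chr2:119351004-119351101, plus strand, match beginning 193 bases before the start: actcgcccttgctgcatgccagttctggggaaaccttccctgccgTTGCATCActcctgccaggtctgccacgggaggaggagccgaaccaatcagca
Aars, chr8:111033685-111033782, plus strand, match beginning 112 bases before the start: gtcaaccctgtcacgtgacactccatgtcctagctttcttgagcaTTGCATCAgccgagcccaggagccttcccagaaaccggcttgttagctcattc
Asns, chr6:7693210-7693277, minus strand, match beginning 23 bases before the start: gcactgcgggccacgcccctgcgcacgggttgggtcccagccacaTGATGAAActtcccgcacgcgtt

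In the first 5 of these stretches the letters lie in the orientation opposite to the gene, and in Asns along it. Nupr1, Tars, Chac1 and Aars share the same TTGCATCA, while Gars has TTTCATCA. The E-box CACGTG, the letters that MYC and related factors bind, reads the same on both strands and was found in 5 of the 30 members (16.7%), against 6.9% of all genes in the table. These 5 were Nupr1, Aldh18a1, Farsb, Iars and Aars, so Nupr1 and Aars held both kinds of letters. Among the 14 mitochondrial tRNA synthetases with a promoter in the table, 0 held either. A match of letters does not show that a factor binds.

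The values below are log2 RMA signals, so that a difference of 1 is a 2-fold change, and differences are NFAT1 shRNA minus control. Array medians ran from 5.42 to 5.48, and the number of arrays limits the precision. Nfatc2 itself is read by 6 probe sets, of which 4 were lower and 2 higher in NFAT1 shRNA cells, and 0 of the 6 reached an adjusted p under 0.05 with limma, against 3 at that level before adjustment. The arrays are therefore called by their labels. On 1439205_at, the Nfatc2 probe set with the smallest p, NFAT1 shRNA arrays read 5.15, 5.43 and 5.29 and control arrays 6.05, 6.18 and 5.91. On 1426032_at, the Nfatc2 probe set with the highest mean, NFAT1 shRNA arrays read 6.19, 6.48 and 6.09 and control arrays 5.92, 5.92 and 5.86, so that these probe sets separated the groups in opposite directions (unadjusted p = 0.000308 and 0.0202 with limma). Within the NFAT1 shRNA group array 1 stood nearest to the controls, with correlations of 0.991 to 0.995 over all probe sets, against 0.977 to 0.987 for array 2 and 0.980 to 0.988 for array 3. For 28 of the 37 members, and 54% of all genes, the control 3 reading fell between the other two controls. Values are for all 6 arrays unless a sentence says otherwise, and for a named gene whose limma call changed without NFAT1 shRNA 1 that call is given too.

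The epithelial genes Krt8 (12.86 to 13.23), Krt18, Epcam and Cdh1 lay at 11.80 or higher on every array, while the basal keratin gene Krt5 lay at 5.10 to 5.39. Krt14, another basal keratin, read 10.67, 10.38 and 10.56 in controls and 9.38, 7.46 and 8.40 in NFAT1 shRNA cells (adjusted p = 0.123 with limma, and 0.00463 without NFAT1 shRNA 1). Of 14 markers of fibroblasts, leukocytes and endothelium, 0 passed the limma test on all 6 arrays and 1, Kdr, did so before adjustment. The leukocyte marker Cd68 passed when NFAT1 shRNA 1 was left out (difference 1.30, adjusted p = 0.00864), where 18.4% of all genes were called. With array weights Cd68 and Kdr passed (adjusted p = 0.0372 and 0.0481), where 18.6% of all genes were called. Cd68, Csf1r, which encodes a macrophage growth factor receptor, and the fibroblast marker Pdgfra lay above the array medians on every array. Csf1r read 8.08, 8.49 and 8.23 in controls and 6.99, 9.01 and 8.26 in NFAT1 shRNA cells. Pdgfra read 6.30, 7.90 and 7.47 in controls and 6.82, 8.44 and 7.88 in NFAT1 shRNA cells. The pan-leukocyte marker Ptprc lay between 2.85 and 3.06 and the endothelial marker Pecam1 between 3.19 and 3.46 on all arrays, well under the array medians. The summed log2 signal of the 5 leukocyte markers ran from 25.3 to 26.4 in controls and from 24.7 to 28.2 in NFAT1 shRNA cells.

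No member passed the test between groups. With limma and Benjamini-Hochberg adjustment over all 18193 genes, 0 of 37 members had an adjusted p under 0.05, where 93 genes, 0.511% of all, did. At an unadjusted p under 0.05 there were 2 members higher in NFAT1 shRNA cells, Nupr1 and Ddit3, and 3 lower, Mthfd2, Psat1 and Gars, where 17.1% of all genes passed that level. A count of 5 in 37 is not above that background. All 3 NFAT1 shRNA arrays lay above all 3 controls for 0 members, against 14.2% of all genes, and below them for 4 members, Mthfd2, Psat1, Gars and Cars, against 8.61% of all genes. The median difference over the members was -0.06 and that over all genes 0.04. Member differences ran from -0.58 (Mthfd2) to 1.03 (Ddit3).

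The count of members called rose when NFAT1 shRNA 1, the array of its group nearest to the controls, was left out. Leaving out the array nearest to the other group tends to widen differences and to narrow the spread, so those calls add no separate support. Without NFAT1 shRNA 1, limma called 10 of the 37 members, 5 higher and 5 lower, where 18.4% of all genes were called (10.6% higher and 7.84% lower). The 5 higher were Ddit3, Atf5, Nupr1, Qars and Sars, and the 5 lower were Mthfd2, Psat1, Hars, Mars1 and Farsa. With control 3 left out as well, limma called 0 of the 37, with a smallest adjusted p of 0.0542. That fit called 2.24% of all genes. Limma's array weights, which let arrays that deviate count less, called 8 of the 37, 4 in each direction, where 18.6% of all genes were called (10% higher and 8.56% lower). Leaving out any 1 of the other 5 arrays called 0 members, but these fits called few genes of any kind. Over all genes they called 0 without control 1, 2 or 3. Without NFAT1 shRNA 2 they called 2 (0.011%), and without NFAT1 shRNA 3 they called 66 (0.363%).

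**Figure D1:**
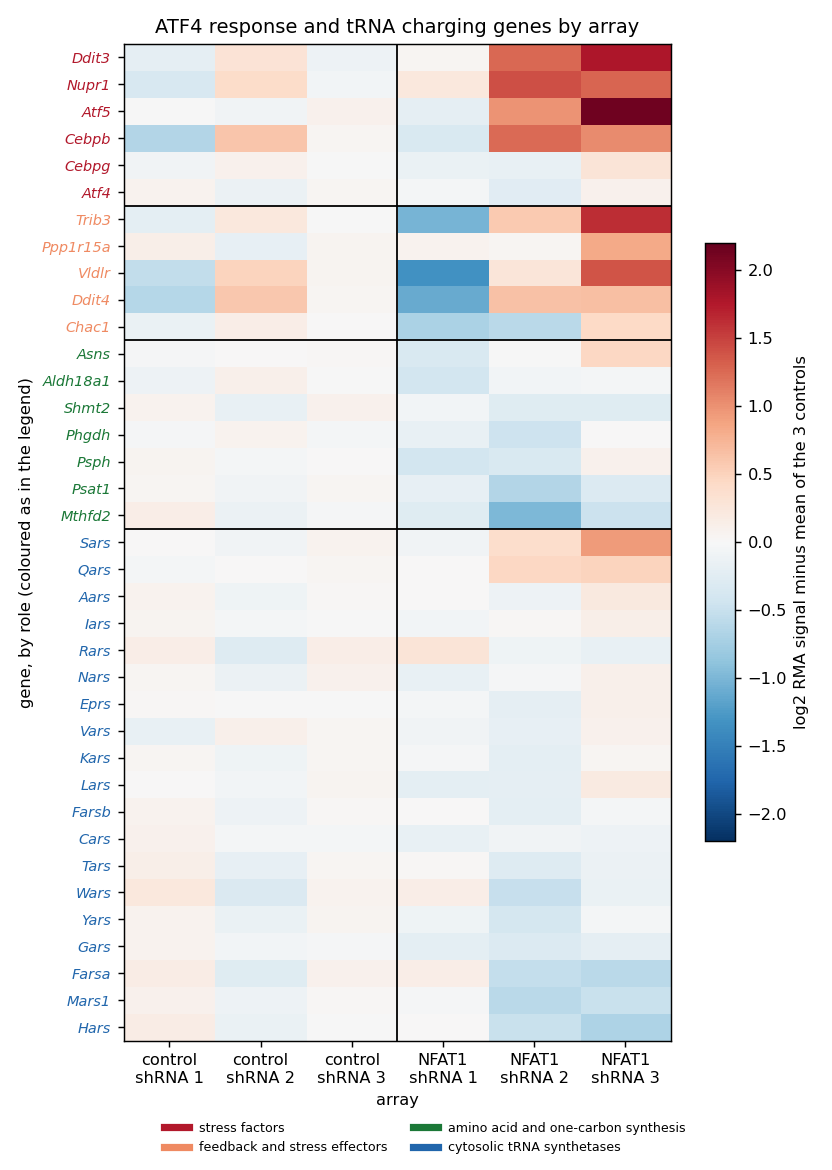
Heat map of the 37 measured genes (vertical axis, by role) on the 6 arrays (horizontal axis), coloured by log2 RMA signal minus the mean of the 3 controls, with colours ending at -2.2 and 2.2. Ddit3, Nupr1, Atf5 and Cebpb are red on NFAT1 shRNA 2 and 3 and near the controls on NFAT1 shRNA 1, while most tRNA synthetases are pale throughout.

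Across arrays, NFAT1 shRNA 3 gave the highest of the 6 readings for 19 of the 37 members, where it did so for 22.6% of all genes. NFAT1 shRNA 2 gave the lowest for 15 of the 37, against 21.2% of all genes, and NFAT1 shRNA 1 the lowest for 12, against 13.7%. Among the 11 stress factors and feedback genes NFAT1 shRNA 3 was highest for 9. The members thus did not move as a block within the NFAT1 shRNA group: on NFAT1 shRNA 1, 2 and 3 the median of the 11 lay -0.19, 0.58 and 1.04 from the control mean, and those of controls 1, 2 and 3 at -0.20, 0.23 and 0.04. The median difference of these 11 genes between groups was 0.32, which became 0.82 when NFAT1 shRNA 1 was left out and -0.15 when NFAT1 shRNA 3 was.

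Atf4, the factor at the head of the response, had closely similar mRNA signals in all 6 samples. It read 11.82, 11.61 and 11.79 on control arrays 1 to 3 and 11.69, 11.49 and 11.83 on NFAT1 shRNA arrays 1 to 3. The groups overlapped, with a difference of -0.07 ± 0.12 (SE; adjusted p = 0.772 with limma) and a 95% interval from -0.34 to 0.21. A dimmer probe set of the gene, 1438992_x_at, differed by -0.40 (unadjusted p = 0.0537) and another, 1439258_at, with signals from 3.62 to 4.18, by 0.31, so the probe sets of Atf4 did not all go one way. Cebpg, a C/EBP protein that forms dimers with ATF4, had a difference of -0.01 and an interval from -0.35 to 0.33. It read 8.85, 9.03 and 8.92 in controls and 8.78, 8.76 and 9.22 in NFAT1 shRNA cells. Dimmer Cebpg probe sets, 1425261_at and 1451639_at, differed by -0.25 and -0.13 (unadjusted p = 0.102 and 0.329 with limma).

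The factors downstream of ATF4 varied far more. Ddit3, which encodes the pro-death factor CHOP, read 7.11, 7.61 and 7.20 in controls and 7.35, 8.58 and 9.09 in NFAT1 shRNA cells. Its NFAT1 shRNA 1 reading lay inside the control range and the other two lay above it. The group means of 7.31 ± 0.27 and 8.34 ± 0.90 (SD, n = 3 each) were 2.04-fold apart, with an adjusted p of 0.29 by limma. Without NFAT1 shRNA 1 the difference was 1.53 (adjusted p = 0.00771).

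Nupr1, a small chromatin protein induced by many stresses, read 9.89, 10.65 and 10.18 in controls and 10.48, 11.66 and 11.52 in NFAT1 shRNA cells. Again NFAT1 shRNA 1 fell within the control range. The difference was 0.98 ± 0.35 (SE; adjusted p = 0.246 with limma), and 1.35 without NFAT1 shRNA 1 (adjusted p = 0.0111). Both probe sets of Nupr1 were higher in NFAT1 shRNA cells, and its promoter stretch is among those shown.

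Atf5, a bZIP factor whose message is translated under the same control as Atf4, read 7.70, 7.63 and 7.81 in controls, a narrow range. In NFAT1 shRNA cells it read 7.52, 8.69 and 9.84, so its replicates there spanned more than the whole difference between groups, 0.98 ± 0.53 (SE; adjusted p = 0.376 with limma). Without NFAT1 shRNA 1 that difference was 1.56 (adjusted p = 0.02). Cebpb, which encodes a C/EBP factor that joins ATF4 at composite elements, already varied among controls, at 10.19, 11.45 and 10.88, and read 10.51, 12.08 and 11.88 in NFAT1 shRNA cells (adjusted p = 0.501 with limma). Among the leukocyte markers Cd68, which was likewise called without NFAT1 shRNA 1, was also high on NFAT1 shRNA 2 and 3, with 6.22, 6.85 and 6.55 in controls and 6.23, 7.75 and 7.92 in NFAT1 shRNA cells, while Ptprc was at 3.06 or lower on every array. The part of Cd68 in these values was not tested.

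**Figure D2:**
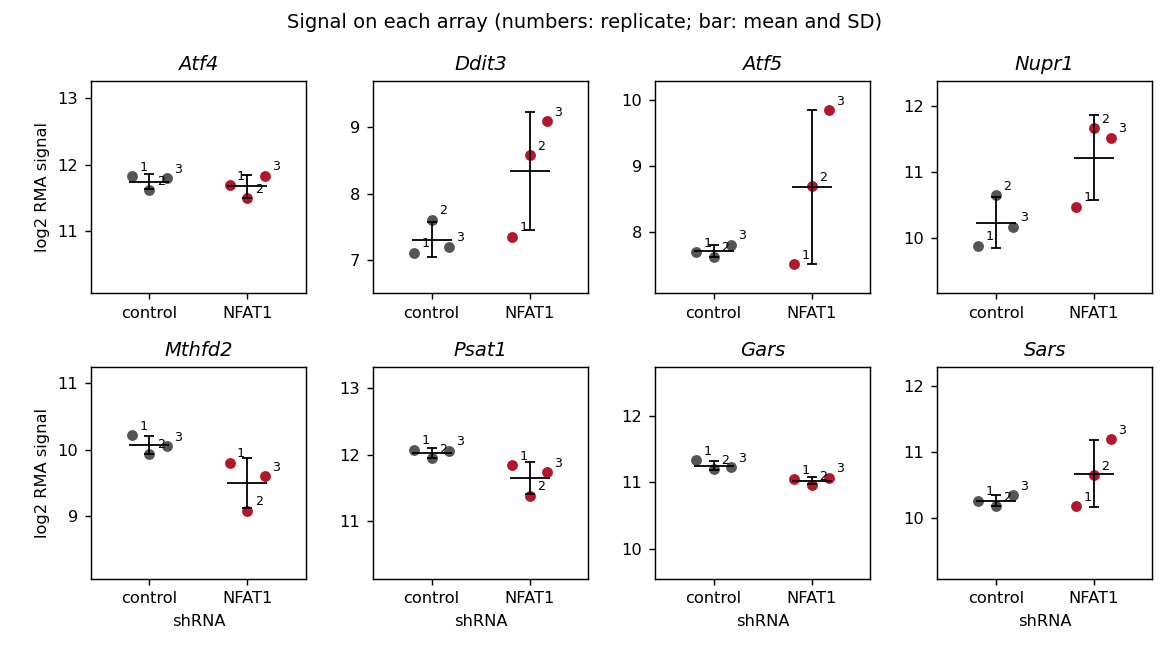
Log2 RMA signal (vertical axis, the same span of 3.2 units in each panel) of 8 genes on the 3 control and 3 NFAT1 shRNA arrays, with replicate numbers beside the points and bars for the mean and SD. Atf4 is level, Ddit3, Atf5, Nupr1 and Sars spread widely in NFAT1 shRNA cells with replicate 1 lowest, and the 3 NFAT1 shRNA readings of Mthfd2, Psat1 and Gars all lie under their controls.

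Among the feedback and effector genes were the members with the widest spread within the NFAT1 shRNA group, Vldlr and Trib3. Trib3, a pseudokinase that restrains ATF4 activity, read 7.98, 8.43 and 8.18 in controls and 7.16, 8.78 and 9.82 in NFAT1 shRNA cells, so that it was both lowest and highest there. Its difference of 0.39 ± 0.62 (SE) had an adjusted p of 0.759 with limma. Vldlr, a lipoprotein receptor gene that ATF4 can induce and the only measured member with a mean signal under 6 in both groups, read 5.30, 6.34 and 5.92 in controls and 4.53, 6.12 and 7.23 in NFAT1 shRNA cells, likewise lowest on array 1 and highest on array 3 of that group. Without NFAT1 shRNA 3 the differences of Trib3 and Vldlr turned to -0.23 and -0.53.

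Chac1, whose product degrades glutathione and which is among the genes with the composite element, read 9.45, 9.73 and 9.59 in controls and 8.90, 8.99 and 10.04 in NFAT1 shRNA cells. Here NFAT1 shRNA 1 and 2 lay below the controls and NFAT1 shRNA 3 above them (difference -0.28, adjusted p = 0.638 with limma). Ppp1r15a, which encodes GADD34, the inducible subunit that directs a phosphatase to eIF2alpha, read 7.23, 6.92 and 7.16 in controls and 7.17, 7.15 and 7.94 in NFAT1 shRNA cells. Only NFAT1 shRNA 3 left the control range (difference 0.32, adjusted p = 0.482). Ddit4, which encodes the mTORC1 inhibitor REDD1, covered 9.96 to 11.19 in controls and 9.49 to 11.26 in NFAT1 shRNA cells, with a difference of 0.06 (adjusted p = 0.959).

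Among 7 measured enzymes of amino acid and folate-linked synthesis, 0 passed with limma and 2 had an unadjusted p under 0.05. The NFAT1 shRNA mean was the lower for 6, where it was for 40.7% of all genes, and the median difference was -0.21, but in 5 of the 7 the groups overlapped. Mthfd2, the mitochondrial folate enzyme, read 10.22, 9.94 and 10.05 in controls and 9.80, 9.08 and 9.60 in NFAT1 shRNA cells. The groups did not overlap, and the NFAT1 shRNA level was 67.1% of control, a difference of -0.58 ± 0.19 (SE; adjusted p = 0.233 with limma). Both of its probe sets showed this separation. Without NFAT1 shRNA 1 the difference was -0.73 (adjusted p = 0.0333).

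Psat1, the aminotransferase of serine synthesis, read 12.07, 11.94 and 12.06 in controls and 11.84, 11.38 and 11.73 in NFAT1 shRNA cells, again without overlap. It stood at 77.2% of control (difference -0.37 ± 0.13, SE; adjusted p = 0.25 with limma), and its second probe set, 1454607_s_at, differed by -0.53, also without overlap. Without NFAT1 shRNA 1 the difference was -0.47 (adjusted p = 0.0468). The dehydrogenase gene Phgdh, which opens serine synthesis, read 12.45, 12.55 and 12.44 in controls and 12.31, 12.01 and 12.49 in NFAT1 shRNA cells (difference -0.21, adjusted p = 0.438). Psph, the phosphatase that completes it, differed by -0.22. Shmt2, which passes carbon from serine to mitochondrial folate, read 11.20, 10.95 and 11.21 in controls and 11.05, 10.86 and 10.86 in NFAT1 shRNA cells (difference -0.20, adjusted p = 0.379).

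Aldh18a1, which opens proline synthesis, differed by -0.17. Asns, the asparagine synthetase gene and a classical ATF4 target with the element close to its start, was the exception in sign, with 0.04 (adjusted p = 0.927). Its controls agreed closely, at 10.87, 10.90 and 10.91, and its NFAT1 shRNA readings of 10.56, 10.88 and 11.36 lay below, within and above them. A second Asns probe set differed by -0.10.

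**Figure D3:**
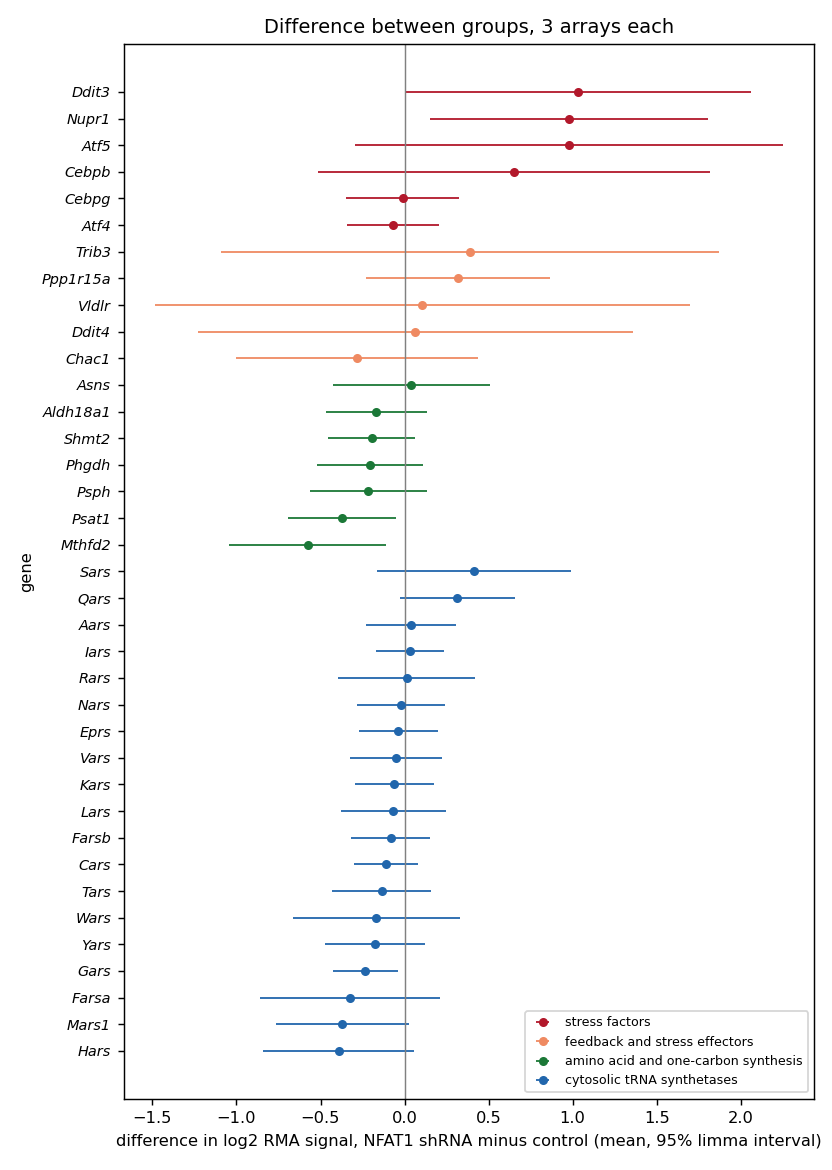
Difference in log2 RMA signal between NFAT1 shRNA and control cells (horizontal axis) for the 37 measured genes (vertical axis), with points for the limma estimate, bars for its 95% interval and colours for the role. Intervals are widest for Trib3, Vldlr, Ddit4 and Atf5, and those of Ddit3, Nupr1, Psat1, Mthfd2 and Gars exclude 0 before adjustment.

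Aminoacyl-tRNA synthetases of the cytosol, each of which loads its own amino acid onto tRNA (a pair of them joined in 1 protein in Eprs), held 19 measured members with differences from -0.39 to 0.41. The median was -0.07, and 14 of the 19 had a lower mean. With limma 0 of the 19 passed, and 1, Gars, was under 0.05 before adjustment. Gars, the glycyl-tRNA synthetase gene, read 11.33, 11.20 and 11.23 in controls and 11.05, 10.96 and 11.07 in NFAT1 shRNA cells, a small separation with little spread in either group. Its difference was -0.23 ± 0.08 (SE; adjusted p = 0.241), or 85.1% of control. Cars, for cysteine, was the other synthetase gene whose groups did not overlap, with a difference of -0.11 (unadjusted p = 0.206 with limma). The groups barely separated, with NFAT1 shRNA 2 at 8.51 and controls 2 and 3 at 8.54. On another Cars probe set, 1427330_at, they overlapped, with a difference of 0.02.

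Mars1, for methionine, read 10.65, 10.43 and 10.57 in controls and 10.53, 9.95 and 10.06 in NFAT1 shRNA cells. Hars, for histidine, read 11.21, 10.90 and 11.04 in controls and 11.05, 10.56 and 10.37 in NFAT1 shRNA cells. In both genes NFAT1 shRNA 1 lay within the control range and the other arrays below it, and the adjusted p was 0.309 and 0.332 with limma. Qars, for glutamine, went the other way, with 10.44, 10.48 and 10.52 in controls and 10.48, 10.93 and 10.97 in NFAT1 shRNA cells (difference 0.31, adjusted p = 0.317). Only 1 of the other 3 Qars probe sets was higher, so this difference depends on the probe set.

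Sars, for serine, and Farsa, a subunit of the phenylalanyl enzyme, were picked out after their values were seen. Sars read 10.26, 10.18 and 10.35 in controls and 10.18, 10.65 and 11.19 in NFAT1 shRNA cells, the largest positive difference of the synthetases, 0.41 (adjusted p = 0.404 with limma), and 0.66 without NFAT1 shRNA 1 (adjusted p = 0.0392). Farsa read 9.99, 9.57 and 9.91 in controls and 9.98, 9.30 and 9.22 in NFAT1 shRNA cells (adjusted p = 0.467). Farsb, the partner subunit of Farsa, differed by -0.08. Without NFAT1 shRNA 1 the differences of Hars, Mars1, Farsa and Qars were -0.59, -0.54, -0.56 and 0.47, with adjusted p from 0.0151 to 0.0405.

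The other 12 synthetase genes lay between -0.18 and 0.04 and had adjusted p-values from 0.476 to 0.976 with limma. They were Yars, Tars, Wars, Kars, Lars, Vars, Iars, Eprs, Aars, Nars, Rars and Farsb, for tyrosine, threonine, tryptophan, lysine, leucine, valine, isoleucine, glutamate with proline, alanine, asparagine, arginine and, in Farsb, phenylalanine. Tars and Aars, which hold the composite element, differed by -0.13 and 0.04. Their 95% intervals, -0.43 to 0.16 and -0.23 to 0.30, leave out a 2-fold change.

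**Figure D4:**
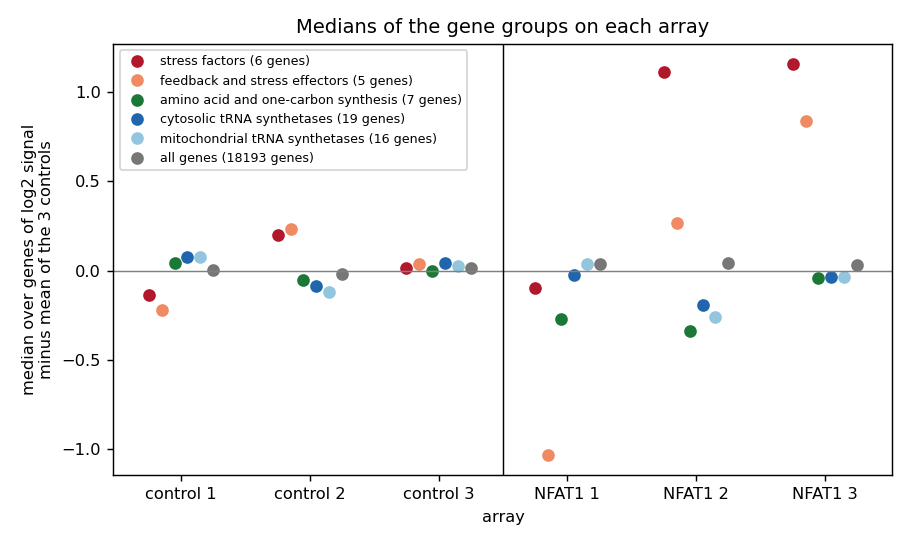
Median over the genes of each group of log2 signal minus the control mean (vertical axis) on each array (horizontal axis). The stress factors lie at 1.11 and 1.16 on NFAT1 shRNA 2 and 3 and at -0.10 on NFAT1 shRNA 1, while cytosolic and mitochondrial tRNA synthetases stay between -0.26 and 0.08 on all arrays.

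Related genes outside the list were counted in the same fit, and on all 6 arrays 0 of them passed with limma. As among the members, calls rose without NFAT1 shRNA 1, the array nearest to the controls. Those calls are given with each group, beside the 18.4% of all genes called there, and add no separate support. With control 3 left out as well, 2.24% of all genes were called. That fit called 1 of the 14 eIF2 genes, lower, and 1 of the 13 in the ATF6 and XBP1 arm, higher. It called 0 in each of the other related groups. Of 16 measured mitochondrial tRNA synthetases, which are encoded by separate nuclear genes, 3 were lower at an unadjusted p under 0.05 and 0 higher. Their median difference of -0.08 lay next to that of the cytosolic enzymes. Mars2 read 5.34, 4.66 and 5.19 in controls and 4.19, 3.57 and 3.86 in NFAT1 shRNA cells, all below the array medians (difference -1.19, adjusted p = 0.0936), and Yars2 and Cars2 differed by -0.70 and -0.35. On leaving out NFAT1 shRNA 1, 6 of the 16 passed, Fars2 higher and Mars2, Yars2, Cars2, Nars2 and Tars2 lower, with adjusted p of 0.0108 for Mars2, 0.0111 for Yars2 and 0.0309 for Cars2. Of the 3 scaffold genes that hold cytosolic synthetases in a complex, Aimp1, Aimp2 and Eef1e1, 0 had an unadjusted p under 0.05, and without NFAT1 shRNA 1 only Aimp2 passed, with a difference of -0.67 (adjusted p = 0.0405).

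Among 14 measured genes of eIF2, its exchange factor and its kinases and phosphatase, 4 were lower at an unadjusted p under 0.05 and 0 higher. Ppp1r15b, the constitutive counterpart of Ppp1r15a that keeps eIF2alpha dephosphorylated, read 10.65, 10.53 and 10.57 in controls and 10.05, 9.64 and 9.60 in NFAT1 shRNA cells, without overlap. This was the smallest adjusted p among the members and these related genes, 0.0709 with limma, for a difference of -0.82 ± 0.14 (SE). It passed without NFAT1 shRNA 1 (difference -0.96, adjusted p = 0.00411) and with array weights (adjusted p = 0.00513). On a dimmer Ppp1r15b probe set, 1436366_at, the groups overlapped, with a difference of -0.24 (unadjusted p = 0.215 with limma). Gcn1, which activates the amino acid sensor GCN2, differed by -0.25 and the haem-regulated kinase gene Eif2ak1 by -0.27. The kinase genes Eif2ak3 (PERK) and Eif2ak4 (GCN2) differed by 0.30 and 0.08. A dimmer Eif2ak4 probe set, 1443235_at, went the other way without overlap, with a difference of -0.32 (unadjusted p = 0.00965 with limma). With NFAT1 shRNA 1 left out, 5 of the 14 passed, Eif2ak3 higher (0.61, adjusted p = 0.0292) and Ppp1r15b, Gcn1 (adjusted p = 0.0451) and the exchange factor genes Eif2b3 and Eif2b5 lower.

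Of 10 amino acid transporter genes linked to ATF4, 4 were lower at an unadjusted p under 0.05 and 0 higher. Slc1a4, a transporter of small neutral amino acids such as serine and alanine, read 8.02, 7.96 and 8.03 in controls and 7.32, 7.05 and 7.55 in NFAT1 shRNA cells (difference -0.69, adjusted p = 0.101). Slc7a5 and Slc3a2, the light and heavy chains of the leucine transporter LAT1, differed by -0.52 and -0.35 (adjusted p of 0.162 and 0.183). In all 3 genes each NFAT1 shRNA array, number 1 included, lay under the lowest control, as in 8.61% of all genes. For 1 of the 10 every NFAT1 shRNA array lay above all controls, against 14.2% of all genes. On dimmer Slc1a4 probe sets, 1423549_at and 1423550_at, the groups overlapped, with differences of -0.31 and -0.35 (unadjusted p = 0.0712 and 0.0872 with limma). In the fit without NFAT1 shRNA 1, 3 of the 10 passed, all lower: Slc1a4 (adjusted p = 0.026), Slc7a5 (0.0236) and the glutamine transporter gene Slc1a5 (0.0091), while Slc3a2 did not (0.0863).

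Among 17 other genes linked to ATF4, 2 were higher and 1 lower at an unadjusted p under 0.05. Cth, the last enzyme of cysteine synthesis, read 7.66, 8.08 and 7.72 in controls and 8.51, 8.26 and 9.38 in NFAT1 shRNA cells (difference 0.90, adjusted p = 0.225). Sesn2, an inhibitor of mTORC1 that senses leucine, differed by 0.41 and the secreted factor gene Stc2 by -0.49. On a dimmer Sesn2 probe set, 1451599_at, the groups overlapped, with a difference of 0.10 (unadjusted p = 0.589 with limma). Leaving out NFAT1 shRNA 1, limma called 2 of the 17, Sesn2 higher (adjusted p = 0.0334) and Nars2, which is also counted among the mitochondrial enzymes, lower. In the ATF6 and XBP1 arm of the unfolded protein response, 1 of 13 genes was higher and 4 were lower at that level. Dnajb9, a chaperone partner in the endoplasmic reticulum, differed by 0.61 (adjusted p = 0.121), and Sdf2l1 and Manf, also of that compartment, differed by -0.82 and -0.39. Of these 13, 7 passed without NFAT1 shRNA 1, Dnajb9 higher (0.75, adjusted p = 0.00496) and Sdf2l1 (0.00869), Manf (0.0166), Dnajc3, Hspa5, Creld2 and Hyou1 lower. At an unadjusted p under 0.05 on all 6 arrays, 10.1% of all genes were higher and 7.01% lower.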

How the data were processed

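What the authors deposited are log2 signals per probe set, computed with RMA per the submitters' processing notes, in a version not given in the sources used here. The quantile step of RMA gives all arrays similar distributions, so it can hide a general shift, and its summary compresses the differences of dim probe sets. Among 45037 probe sets, 34945 carry 1 gene symbol in the platform annotation. The gene table of GRCm38.p6 gave symbols, and RefSeq promoters of that build gave sequences. Labels gave groups and replicate numbers.

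The test was limma 3.58.1 (lmFit, eBayes; R 4.3.3) over 18193 genes, with no covariate and no filter on dim genes, 2-sided, adjusted by Benjamini-Hochberg over all genes. The same fit was also run on simulated data, with noise drawn separately for each gene and array and no differences between whole arrays. The rule for named genes took, in each of 4 role groups, up to 4 genes with the smallest p and Atf4, and from each related list up to 3 genes with an unadjusted p under 0.05. Further names were added after the values were seen. Members and lists were chosen with earlier results of these data known. The 16 alternatives changed the filter, scaling, variance prior, weights, probe sets and arrays used, or added a replicate block. Arrays have no read depth.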

Additional observations from a re-analysis of the deposited data

How the results depend on the processing

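The count of members passing limma was 0 in the deposited scaling and in 13 of the 16 alternatives, and 8 with array weights, 1 with the replicate block (Nupr1, adjusted p = 0.0301) and 0 to 10 on leaving out each array, the 10 being reached without NFAT1 shRNA 1 only. The count over all genes was 93, and 3380 with array weights, 792 with the replicate block, 407 without control 3 and NFAT1 shRNA 1, and 0 to 3349 on leaving out each array. It was 0 without control 1, 2 or 3, where 939, 1231 and 1057 genes were higher and 759, 1016 and 704 lower at an unadjusted p under 0.05. Among the related and marker genes the replicate block called Mars2, Yars2, Ppp1r15b, Slc1a4, Slc7a5, Krt14, Pdgfra and Dnajb9. Their adjusted p ran from 0.00812 to 0.0475, in a setting that called 4.35% of all genes. Array weights called 18.6% of all genes. They called 5 of 16 mitochondrial synthetases (1 higher), 5 of 14 eIF2 genes (0 higher) and 5 of 10 transporters (1 higher). Of the 17 other ATF4-linked genes they called 4 (2 higher), and of the 13 in the ATF6 and XBP1 arm 6 (1 higher). Replicate numbers were not taken as a pairing in the main fit. Same-numbered arrays deviated together at 0.692, 0.535 and -0.042, and array 3 of neither group correlated best with its own number. Control 1 with NFAT1 shRNA 2 gave -0.548, and control 2 with NFAT1 shRNA 1 gave -0.693. Control 3 lay near 0 with NFAT1 shRNA 1 and 2 too (0.02 and 0.015). These values do not decide whether the arrays were paired. The median difference of the stress factors and feedback genes, 0.32, was 0.86 without control 3 and NFAT1 shRNA 1 and ran from -0.15 (without NFAT1 shRNA 3) to 0.82 (without NFAT1 shRNA 1) on leaving out each array. That of the synthesis enzymes stayed between -0.32 and -0.16 and that of the cytosolic tRNA synthetases between -0.13 and -0.0047 over all 16. The causes were not tested.

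Of the 37 members, 21 kept their sign in all alternatives run. No member whose sign turned had an adjusted p under 0.05 there. Signs turned with array weights for Aars (-0.0026) and Rars (-0.17), with array medians subtracted for Rars (-0.0081), with quantile normalization again for Cebpg (0.020) and Nars (0.015), with the mean of probe sets for Asns (-0.031), without probe sets ending in _x_at or _s_at for Farsb (0.0076), and without control 3 and NFAT1 shRNA 1 for Cebpg (0.051), Lars (0.038), Nars (0.098) and Rars (-0.059). Leaving out each array gave ranges across 0 for Aars (-0.055 to 0.12), Asns (-0.17 to 0.23), Atf4 (-0.15 to 0.020), Cebpg (-0.16 to 0.069), Ddit4 (-0.25 to 0.65), Eprs (-0.12 to 0.040), Iars (-0.017 to 0.080), Kars (-0.12 to 0.013), Lars (-0.20 to 0.0070), Nars (-0.092 to 0.049), Rars (-0.13 to 0.097), Trib3 (-0.23 to 1.10), Vars (-0.13 to 0.011), Vldlr (-0.53 to 0.82) and Wars (-0.33 to 5e-04). The filter on dim genes left Vldlr untested, and without the _x_at and _s_at probe sets Phgdh had none left.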
